A study of Oryza sativa with 36 samples.

Results

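The shoot transcriptome of rice carrying FTOmut was set against that of the wild type, with 4 of the 36 libraries of the series: 2 of FTOmut shoot and 2 of wild-type shoot. The shoot table listed 55801 rice loci, of which 24463 had enough counts to be tested. FTO is an animal enzyme that takes the methyl group off N6-methyladenosine (m6A), the commonest internal mark of messenger RNA, and FTOmut is a mutant form of it. The labels do not describe the mutation; from the published work on these plants, as background, it is known as a form without that activity, which was not measured here. The comparison sets transgenic FTOmut plants against untransformed ones.

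Wild type was Nipponbare (Nipp), an Oryza sativa cultivar, and the FTOmut plants were homogeneous for the transgene. Seedlings of 15 days came from hydroponic Kimura B culture with 12 h of light at 26 °C and nights at 22 °C; the growth and RNA-seq notes name Nipp and FTO plants, and the FTOmut records carry the same notes. The promoter of the transgene, the number of independent lines and whether replicates were separate cultures were not found in the labels, so p-values measure only the spread between these libraries. The hour of harvest is not in them either. ERCC spike-in RNA was added before removal of ribosomal RNA, while the molecule is labelled polyA RNA; the transcript of the transgene was not analysed here. The 2 FTO shoot libraries, from plants with the active enzyme, entered the same model to estimate the spread and are given where they help to place a level.

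Several of the pathways described below are well studied in rice. DREB1 (CBF) transcription factors bind promoters of stress genes and are classic early responders to cold. JAZ repressors of the TIFY family are themselves induced by jasmonate, a hormone of wounding and defence, and WRKY factors set the strength of pathogen responses. Nicotianamine and the mugineic acids made from it carry iron through grasses.

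The libraries of each genotype differed widely from each other. Gene counts were 12969871 and 13917057 in wild type against 16370977 and 17606112 in FTOmut, with replicate 1 first here and throughout. Wild-type replicates 1 and 2 lay at least 1 log2 unit apart in 9499 genes (38.8% of those tested), against 6721 genes (27.5%) between the FTOmut libraries and 2975 (12.2%) between the FTO libraries. Wild-type replicate 1 was close to FTO, with Spearman correlations over the tested genes of 0.964 and 0.965. Wild-type replicate 2 had a correlation of 0.868 with wild-type replicate 1, of 0.926 with FTOmut replicate 1 and of 0.864 with FTOmut replicate 2. With the FTO libraries its correlations were 0.889 and 0.89. The second FTOmut library detected 36654 genes at 10 counts or more, against 18082 to 22488 in the other 5 shoot libraries, and 12732 of the 31338 genes removed as too low reached 10 counts only there. A pair of loci on chromosome 9 took 21.0% and 34.4% of the counts in wild type and 14.3% and 18.6% in FTOmut. In the FTO libraries the same pair took 64.8% and 63.6%. Levels below are therefore given by library, and for some genes and lists also against each wild-type library alone.

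Tissue markers were read for the whole list. Of 18 genes known from roots, 10 were too low to be tested in shoot, and the median of the tested 8 lay between -0.39 and -0.02 log2 CPM in the wild-type and FTOmut libraries. The median of 25 photosynthesis genes was 8.43 log2 CPM in wild-type replicate 1 and 8.13 and 8.48 in FTOmut, but 6.13 in wild-type replicate 2. In 24 of the 25, wild-type replicate 1 lay at least 1 log2 unit above wild-type replicate 2, against 16.0% of all tested genes. Of 15 genes of meristems and cell division, 11 were higher by that margin in wild-type replicate 2 than in replicate 1, against 22.8% of all. In whole shoots, fewer cells of a type and less RNA per cell cannot be told apart, and the part of tissue makeup in the values below was not tested.

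No gene passed edgeR's quasi-likelihood test at a Benjamini-Hochberg adjusted p under 0.05 (0 of 24463, 0.0%). The smallest adjusted p was 0.231. Without adjustment, at p under 0.05, 1217 genes had a higher fitted level in FTOmut (4.97%) and 962 a lower one (3.93%). DESeq2 on the same counts called 532 genes, 294 higher (1.2%) and 238 lower (0.973%). With wild-type replicate 2 left out and the tested genes held, edgeR called 1607 genes, and with replicate 1 left out 151; either fit assumes that the lone wild-type library varies like the other genotypes. The number of calls thus changed with the wild-type library kept.

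Because the test called none, genes are described by the levels of the 4 libraries. A gene is called apart when its nearest FTOmut and wild-type libraries differed by at least 1 log2 unit of counts scaled to library size (log2 CPM). FTOmut was apart above wild type in 778 genes (3.18% of those tested) and apart below it in 249 (1.02%). A gap of at least 2 log2 units was seen in 155 genes above and 25 below, and a gap of at least 3 in 24 and 3. The choice itself favours low wild-type levels above and high ones below. The 778 genes had a median of -0.12 log2 CPM in wild type and 2.05 in FTOmut, against 1.91 and 1.94 over all tested genes. The 249 genes had a median of 3.25 in wild type. The mean of the FTO libraries was nearer to wild type than to FTOmut in 700 of the 778 (90.0%) and 211 of the 249 (84.7%). Over all tested genes the share was 67.5%. Choosing genes by extreme FTOmut levels itself favours such a rise, so nothing is concluded from it. On every chromosome between 2.07% and 4.45% of the tested genes were apart above and between 0.584% and 1.34% apart below.

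Of the loci without a checked name, those with the smallest p are given first. LOC_Os03g61160 had 3.33 and 4.09 log2 CPM in wild type against -1.63 and -0.96 in FTOmut, a fitted log2 fold change of -5.10 ± 0.479 (SE). LOC_Os12g37690 had 1.73 and 1.61 in wild type against -1.29 and -1.23 in FTOmut and both FTO libraries lay more than 1 log2 unit above wild type. In FTO, LOC_Os03g61160 had 4.39 and 4.07 log2 CPM, as high as in wild type. LOC_Os06g11240 went the other way, with 1.73 and 1.99 log2 CPM in wild type against 5.08 and 4.71 in FTOmut, with FTO at 1.81 and 2.06. LOC_Os02g52220 had 14 and 17 counts in wild type against 217 and 363 in FTOmut. These 4 were the loci with the smallest p in either direction, and their groups did not overlap.

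A set of 464 loci in 27 lists was then read, 410 of which were tested. FTOmut was apart above wild type in 27 of them and apart below in 9, or 6.59% and 2.2%, beside 3.18% and 1.02% of all tested genes; the lists were chosen with results of these data known. The lists differed among themselves: cold and DREB genes had 6 of 14 apart above, defence genes 6 of 24, cytokinin and auxin genes 3 of 17, abscisic acid and drought genes 4 of 24 and jasmonate genes 2 of 16. No member was apart in 14 of the lists. Among these were photosynthesis, chlorophyll, nitrogen, phosphate, meristem, heat, low oxygen, cell wall and the 4 listed subunits of the m6A methyltransferase complex. With 3.18% and 1.02% of all tested genes apart, lists this short can easily hold none, so no contrast is drawn from these 14. The median fitted log2 fold change was 1.93 in the cold list, 1.13 in the jasmonate list and 0.77 in the defence list, against 0.09 over all tested genes.

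**Figure D1:**
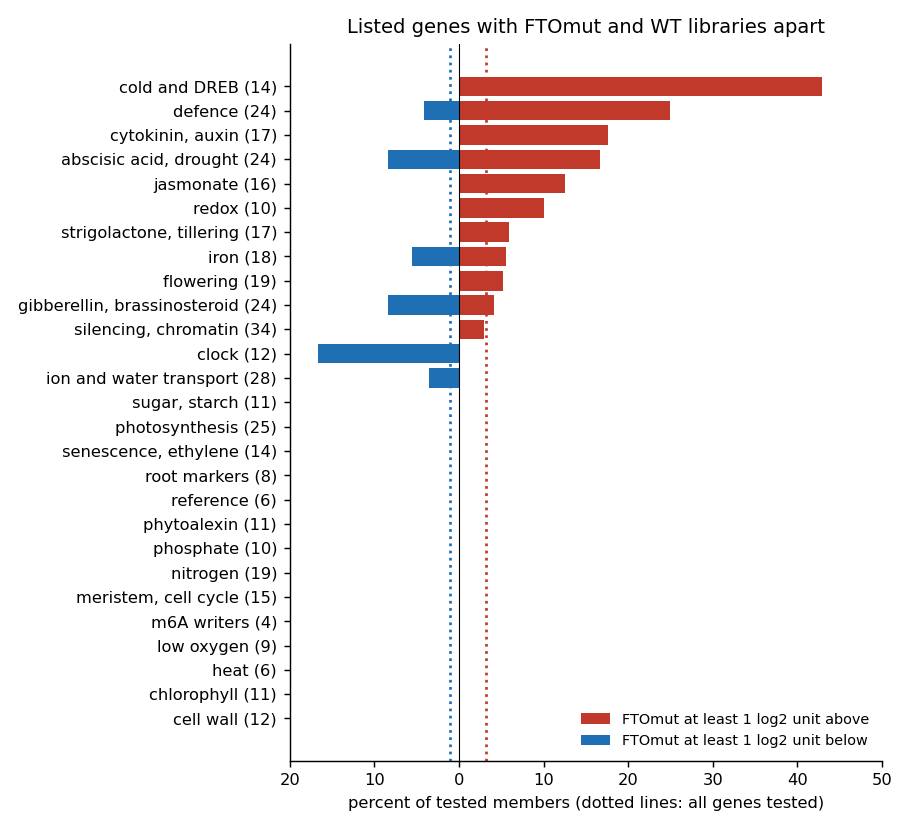
Percent of the tested members of each gene list with both FTOmut shoot libraries at least 1 log2 unit above (red) or below (blue) both wild-type libraries; the number tested is in brackets and dotted lines give the share of all tested genes, 3.18% above and 1.02% below. The cold and DREB list reaches furthest on the upper side, with 6 of 14 members, and the clock list on the lower side, with 2 of 12.

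Cold-response regulators had the largest share of members apart among the 27 lists. DREB1A had 3.94 and 4.60 log2 CPM in wild type against 7.40 and 7.36 in FTOmut, and both FTO libraries, at 3.03 and 2.63, were under wild type. FTOmut stood 3.44 log2 units above wild-type replicate 1 and 2.78 above replicate 2, so this gap did not hang on either wild-type library. The fitted log2 fold change was 3.08 ± 0.395 (SE), with an edgeR adjusted p of 0.231.

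DREB1B, its neighbour on chromosome 9, had 1.20 and 4.53 log2 CPM in wild type against 7.15 and 6.84 in FTOmut. DREB1C, a close relative on chromosome 6, had 1.84 and 5.08 in wild type against 7.22 and 6.84 in FTOmut. For both genes the order of the libraries was wild-type replicate 1, wild-type replicate 2, FTOmut, with more than 3 log2 units between the wild-type libraries. The 2 genes stood 5.80 and 5.19 log2 units above replicate 1 but 2.47 and 1.96 above replicate 2. Their fitted log2 fold changes were 3.34 ± 0.967 and 2.82 ± 0.942 (SE).

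DREB1F and DREB1H were nearly silent in wild-type replicate 1, with 2 counts each. DREB1F had 34 counts in wild-type replicate 2 and 354 and 165 in FTOmut, and DREB1H had 51 and then 363 and 187. DREB1E and DREB1G, named here after their values were seen, missed the margin of 1 log2 unit: DREB1E had -0.79 and 2.56 log2 CPM in wild type against 3.93 and 3.38 in FTOmut, and DREB1G had 1.06 and 4.23 in wild type against 5.42 and 5.09 in FTOmut. Of the 8 DREB1 loci listed, 7 were tested and 5 were apart, and in all 7 tested the FTOmut libraries lay above both wild-type libraries and wild-type replicate 2 lay nearer to FTOmut than replicate 1 did. Replicate 2 was the nearer one in 60.4% of all tested genes. DESeq2 called 4 of the 7 higher, against 1.2% of all tested genes, and edgeR called none. DREB1A, DREB1B and DREB1H are adjacent and alike in sequence, and the authors' fractional counts could split shared reads between them.

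TPP1, a trehalose-phosphate phosphatase linked to chilling tolerance, followed the same order, with 1.01 and 4.64 log2 CPM in wild type against 6.41 and 5.75 in FTOmut. FTOmut stood 5.07 above replicate 1 and 1.45 above replicate 2.

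**Figure D2:**
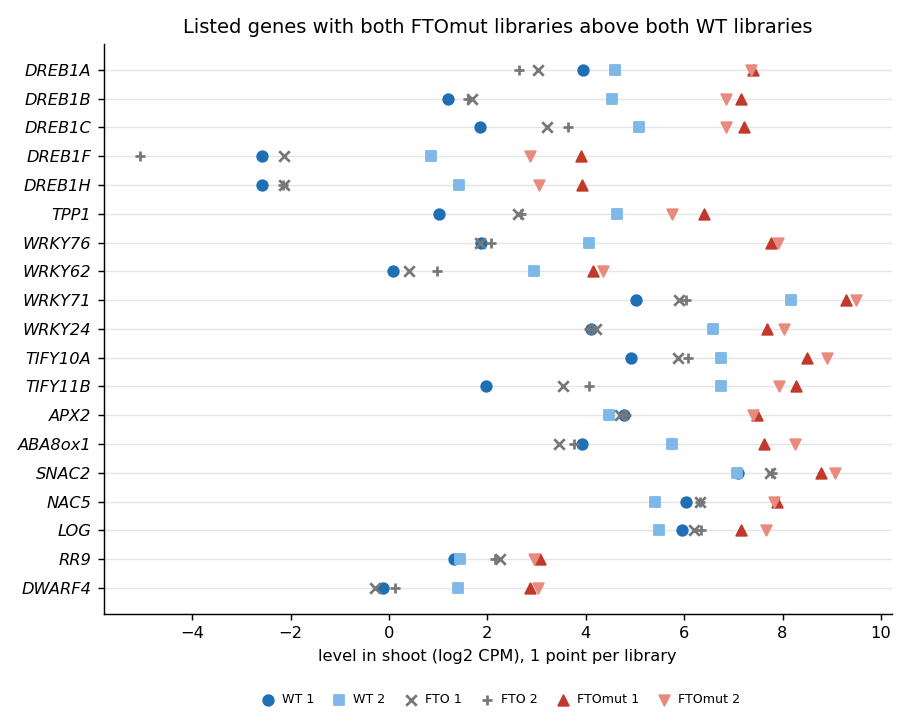
Level of 19 listed genes (log2 CPM) in each of the 6 shoot libraries, 1 point per library, with blue for wild type, grey for FTO and red for FTOmut. In all 19 rows both red points lie at least 1 log2 unit right of the blue ones; in the DREB1, TPP1, WRKY and TIFY rows wild-type replicate 2 (light blue) lies between wild-type replicate 1 and FTOmut, while in APX2, NAC5 and LOG it does not.

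WRKY factors made up most of the defence genes that stood apart. Of 11 tested, 5 were apart above and 1 below, against 3.18% and 1.02% of all tested genes. Their median fitted log2 fold change was 1.80. WRKY76, a repressor of blast defence that also raises cold tolerance when overexpressed, had 1.87 and 4.07 log2 CPM in wild type against 7.76 and 7.90 in FTOmut, with FTO at 1.85 and 2.06. It stood 5.96 log2 units above wild-type replicate 1 and 3.77 above replicate 2, and had a fitted log2 fold change of 4.48 ± 0.759 (SE) with an edgeR adjusted p of 0.231. WRKY62, a negative regulator of basal defence at the next locus on chromosome 9, was lower in level, with 0.08 and 2.94 in wild type against 4.15 and 4.36 in FTOmut.

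WRKY71 and WRKY24, both known as repressors of gibberellin signalling in aleurone cells, were expressed more strongly. WRKY71 had 5.02 and 8.17 log2 CPM in wild type against 9.30 and 9.49 in FTOmut. WRKY24 had 4.10 and 6.58 in wild type against 7.67 and 8.02 in FTOmut. In both, most of the distance from wild-type replicate 1 to FTOmut was already present in wild-type replicate 2: WRKY71 stood 4.38 above replicate 1 but 1.22 above replicate 2. Wild-type replicate 2 lay nearer to FTOmut in 11 of the 11 WRKY genes.

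In 6 of 16 jasmonate genes FTOmut lay above both wild-type libraries by any gap, as in 4412 of all 24463 tested genes, and in 2 it lay below both (13.9% of all). TIFY10A, a JAZ repressor, had 4.92 and 6.74 log2 CPM in wild type against 8.50 and 8.91 in FTOmut, with FTO at 5.88 and 6.07, and stood 3.79 and 1.96 log2 units above wild-type replicates 1 and 2. TIFY11B, another JAZ repressor with an adjacent copy on chromosome 3, had 1.98 and 6.76 in wild type against 8.27 and 7.93 in FTOmut. These were the 2 of 16 members that stood apart, against 3.18% of all tested genes apart above.

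The JAZ genes TIFY11E and TIFY11D split the wild-type libraries. TIFY11E had -0.97 and 5.39 log2 CPM in wild type against 6.24 and 5.87 in FTOmut, and TIFY11D had 3.99 and 7.45 against 8.18 and 7.36. For TIFY11D the groups overlapped, since FTOmut replicate 2 was under wild-type replicate 2. Across the list, wild-type replicate 2 was at least 1 log2 unit above replicate 1 in 13 of 16 genes, against 22.8% of all tested genes. The FTOmut mean was at least 1 log2 unit above wild-type replicate 1 in 13 members (21.6% of all tested genes) and above replicate 2 in 4 (12.6% of all). With wild-type replicate 2 left out and the tested genes held, a fit added after seeing the data, edgeR called 11 of the 16 higher (3.52% of all tested genes), and with replicate 1 left out 0 (0.384%). When the filter on low counts was run anew after the library was left out, the numbers were 13 of 16 (3.96% of all) and 1 of 16 (1.71%), the 1 being TIFY10A at an adjusted p of 0.00098.

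**Figure D3:**
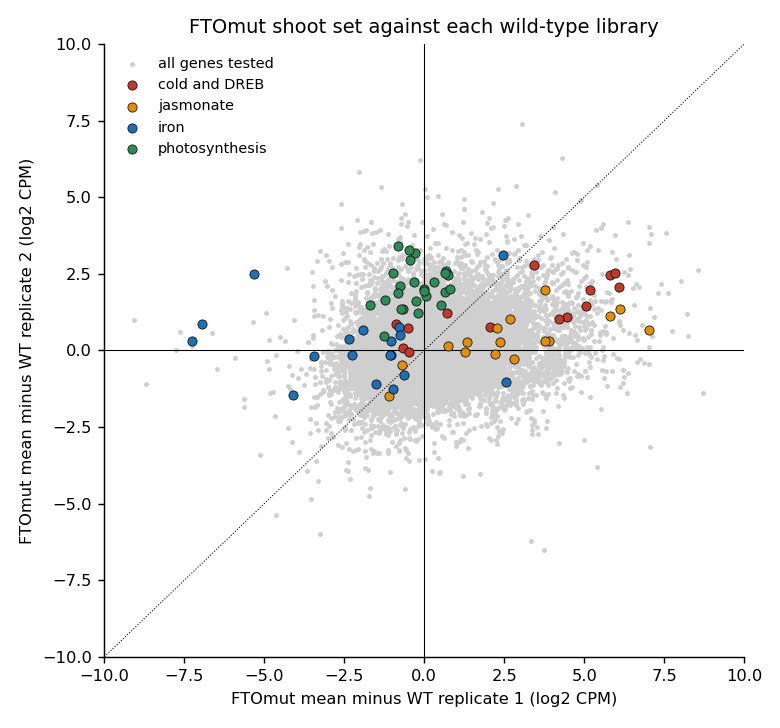
FTOmut mean minus wild-type replicate 1 (x axis) and minus wild-type replicate 2 (y axis), in log2 CPM, for the 24463 tested genes (grey) and 4 lists in colour; the dotted line marks equal differences. Cold and DREB genes lie mostly in the upper right. Jasmonate genes lie mostly to the right, with 4 of 16 at least 1 log2 unit above 0 on the y axis and 1 as far below. Iron genes stretch to the left, and photosynthesis genes lie above 0 on the y axis and around 0 on the x axis.

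A smaller set of genes differed as much from either wild-type library. APX2, a cytosolic ascorbate peroxidase that removes hydrogen peroxide, had 4.79 and 4.47 log2 CPM in wild type against 7.47 and 7.40 in FTOmut, with FTO at 4.69 and 4.82. The 4 libraries without FTOmut spanned less than 1 log2 unit, and FTOmut stood 2.65 and 2.96 above wild-type replicates 1 and 2. The fitted log2 fold change was 2.80 ± 0.343 (SE), with an edgeR adjusted p of 0.231 and a DESeq2 adjusted p of 4.89e-13. It was the 1 of 10 redox genes that stood apart above, as 3.18% of all tested genes did. CATA, a catalase of the same list, had 8.97 and 7.72 in wild type against 6.93 and 6.98 in FTOmut, with a gap under the margin.

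Among abscisic acid and drought genes, 4 of 24 were apart above and 2 apart below, against 3.18% and 1.02% of all tested genes. SNAC2, a NAC factor that raises cold and salt tolerance when overexpressed, had 1994 and 2593 counts in wild type against 10528 and 12140 in FTOmut. NAC5, a stress-induced NAC factor, had 6.03 and 5.42 in wild type against 7.88 and 7.82 in FTOmut. Both NAC genes stood within 1.82 to 2.43 log2 units above each wild-type library.

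ABA8ox1 encodes a hydroxylase that breaks down abscisic acid, and had 3.93 and 5.75 log2 CPM in wild type against 7.63 and 8.25 in FTOmut, with FTO at 3.45 and 3.76. ABA8ox2 encodes another such hydroxylase and went the opposite way, with 3.27 and 2.98 in wild type against 1.83 and 0.06 in FTOmut. RAB16A, a dehydrin gene induced by abscisic acid, had 2.12 and 1.63 in wild type against 0.62 and -1.39 in FTOmut. The FTOmut libraries differed from each other by more than 1 log2 unit in both genes that lay below. DESeq2 called 4 of the list higher and 1 lower, against 1.2% and 0.973% of all tested genes.

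A few hormone genes stood apart, in either direction. LOG, which makes active cytokinin in the last step of its synthesis, had 5.95 and 5.49 log2 CPM in wild type against 7.15 and 7.66 in FTOmut, with FTO at 6.21 and 6.35, and RR9, a type-A response regulator that cytokinin induces, had 1.32 and 1.45 in wild type against 3.07 and 2.95 in FTOmut. RR9 has a near-identical copy on another chromosome, so its counts are uncertain. The fitted log2 fold changes were 1.69 ± 0.385 for LOG and 1.63 ± 0.309 (SE) for RR9. In both the wild-type libraries lay within 1 log2 unit of each other.

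In the gibberellin and brassinosteroid list, 1 of 24 members was apart above and 2 below, against 3.18% and 1.02% of all tested genes. SD1, the gibberellin 20-oxidase of the semidwarf varieties, had 2.12 and 1.63 log2 CPM in wild type against 0.27 and 0.28 in FTOmut, with FTO at 2.35 and 3.02, on 63, 59, 28 and 27 counts in wild type and FTOmut. EUI1, which inactivates gibberellin, was lower still, with 0.68 and -0.05 in wild type against -1.45 and -1.09 in FTOmut on 8 to 23 counts. DWARF4, a brassinosteroid hydroxylase, had -0.12 and 1.39 in wild type against 2.88 and 3.02 in FTOmut. GID1, the gibberellin receptor, had 6.38 and 5.85 in wild type against 5.70 and 4.66 in FTOmut. Its groups did not overlap, but the gap was small.

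D14, the strigolactone receptor, had 6.47 and 6.23 log2 CPM in wild type against 5.47 and 5.18 in FTOmut and a fitted log2 fold change of -1.02 ± 0.332 (SE), without reaching the margin. SPL7 was the 1 of 17 strigolactone and tillering genes that stood apart, against 3.18% of all tested genes apart above. It did so on 2 and 3 counts in wild type against 15 and 13 in FTOmut. Hd3a, the florigen gene, was likewise near the floor, with 0 and 4 counts in wild type against 22 and 30 in FTOmut. MET1b, a maintenance DNA methyltransferase, had 5 and 10 counts in wild type against 47 and 30 in FTOmut.

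Genes that were lower in FTOmut included the evening-complex gene LUX. It had 2.53 and 0.97 log2 CPM in wild type against -0.91 and -0.84 in FTOmut, with FTO at 1.54 and 1.35, on 12 counts in each FTOmut library, and a fitted log2 fold change of -2.87 ± 0.615 (SE). LHY, a morning gene of the clock, had 8915 and 954 counts in wild type but 3052 and 3784 in FTOmut. FTOmut was 2.06 log2 units below wild-type replicate 1 and 1.56 above replicate 2, so no direction could be given for LHY. GI, a clock gene that also times flowering, had 8.20 and 8.43 in wild type against 7.70 and 8.01 in FTOmut, and PRR73, a pseudo-response regulator, had 7.50 and 7.25 against 7.65 and 8.21. Of the 12 clock genes tested, 2 were apart below and 0 above, against 1.02% and 3.18% of all tested genes. In 8 of the 12, FTOmut lay below wild type by any gap, against 13.9% of all tested genes.

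Iron genes divided the wild-type libraries. NAS1, a nicotianamine synthase, had 430 counts in wild-type replicate 1 but 2 in replicate 2, and 4 and 6 in FTOmut. It passed the filter only through the FTO libraries, and was not tested when only the 4 libraries compared were fitted. NAS2, its neighbour and near copy on chromosome 3, had 444 and 2 counts in wild type against 11 and 26 in FTOmut. Nramp1, a metal transporter, had 7.01 and -0.40 log2 CPM in wild type against -1.02 and 0.52 in FTOmut, with FTO at 7.90 and 7.88. For all 3 genes wild-type replicate 1 sided with FTO and wild-type replicate 2 with FTOmut, and the fitted log2 fold changes were -6.05 ± 2.04, -4.24 ± 1.84 and -6.11 ± 2.05 (SE). Against wild-type replicate 2 alone, the FTOmut mean was higher by 0.85 log2 units for NAS1 and 2.51 for NAS2. For Nramp1 the FTOmut libraries lay on either side of wild-type replicate 2, with a mean difference of 0.15. The fitted log2 fold change of Nramp1 stayed negative whichever library was left out, at most -0.103.

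Further members repeated this with smaller distances. NAAT1, an aminotransferase of mugineic acid synthesis, had 4.93 and 2.83 log2 CPM in wild type against 2.99 and 2.35 in FTOmut, and IDEF1, a regulator of iron-deficiency genes, had 4.07 and 3.17 against 3.04 and 3.01. IRT2, an iron transporter, had 7 and 1 counts in wild type and 0 in both FTOmut libraries, and was the member apart below. At such counts it passed the filter only through the FTO libraries, and its gap depends on the prior count. NAS3 was the member apart above, with 5 and 4 counts in wild type against 40 and 56 in FTOmut. The FTOmut mean was at least 1 log2 unit below wild-type replicate 1 in 12 of 18 iron genes (11.4% of all tested genes) but below replicate 2 in 4 (8.21% of all). Wild-type replicate 1 was at least 1 log2 unit above replicate 2 in 11 of the 18 (16.0% of all).

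Ion and water transport genes gave 1 member apart of 28, on the lower side, against 1.02% of all tested genes apart below. TIP1;1, a vacuolar aquaporin, had 7.54 and 7.33 log2 CPM in wild type against 6.27 and 4.68 in FTOmut, with FTO at 8.05 and 7.81, so FTOmut was lower in both libraries though these differed by more than 1 log2 unit. PIP1;2, an aquaporin of the plasma membrane, had 8.12 and 7.08 in wild type against 7.23 and 6.06 in FTOmut, with overlapping groups. HKT2;1, a sodium transporter, had 3.48 and 0.93 in wild type against 0.32 and -0.21 in FTOmut.

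**Figure D4:**
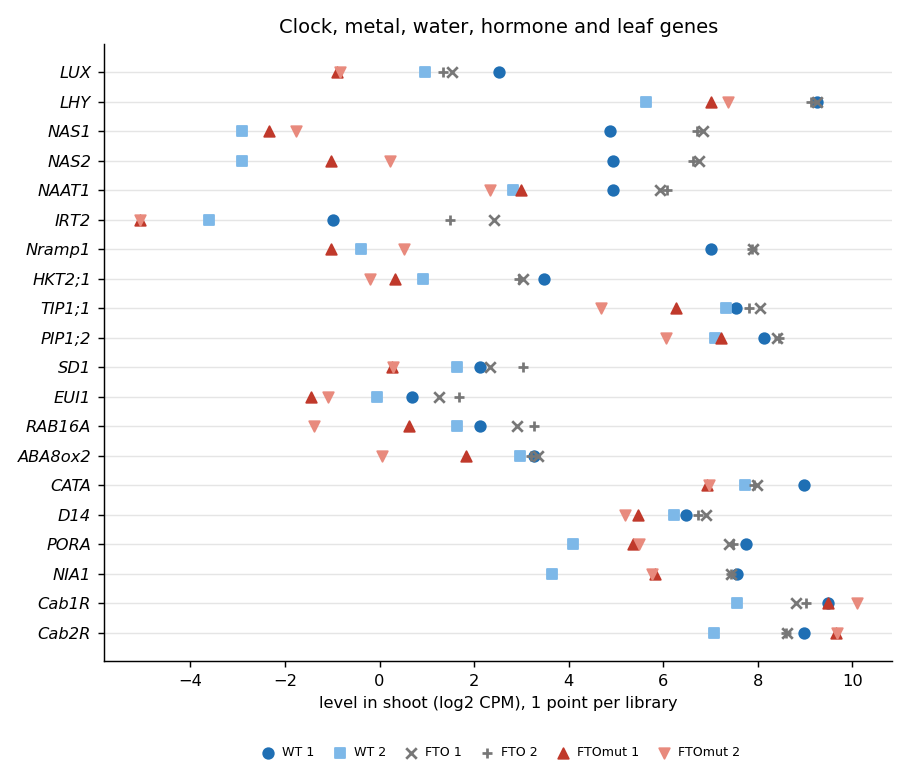
Level of 20 listed genes (log2 CPM) in each of the 6 shoot libraries, 1 point per library, coloured as wild type (blue), FTO (grey) and FTOmut (red). In NAS1, NAS2 and Nramp1 wild-type replicate 1 lies with FTO and wild-type replicate 2 with FTOmut, while in LUX, SD1, EUI1, TIP1;1, RAB16A and ABA8ox2 both blue points lie right of both red ones.

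Leaf metabolism was read as the counterpart. Cab1R, a light-harvesting protein, had 9.47 and 7.56 log2 CPM in wild type against 9.49 and 10.09 in FTOmut, with FTO at 8.81 and 9.01, and Cab2R had 8.98 and 7.07 in wild type against 9.65 and 9.68 in FTOmut. PORA, a protochlorophyllide reductase, had 7.76 and 4.08 in wild type against 5.37 and 5.49 in FTOmut. NIA1, nitrate reductase, had 7.57 and 3.66 against 5.83 and 5.75, and Fd-GOGAT, which assimilates ammonium, had 9.81 and 7.07 against 8.75 and 9.79. In these 5 genes wild-type replicate 2 was the lowest of the 6 libraries. The FTOmut mean was at least 1 log2 unit above wild-type replicate 2 in 24 of 25 photosynthesis genes (12.6% of all tested genes) and above replicate 1 in 0 of them (21.6% of all).

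Members of other lists are given for reference. PCNA, a sliding clamp of DNA replication, had 0.34 and 1.90 log2 CPM in wild type against 3.08 and 2.33 in FTOmut, and OSH1, a homeobox gene of the shoot meristem, had 1 and 15 counts in wild type against 59 and 11 in FTOmut. CPS4 and KSL4, which make precursors of momilactone phytoalexins, had 1 count each in wild-type replicate 1 but 86 and 135 in replicate 2, with 28 and 54 and with 24 and 43 in FTOmut. AGO4a, an argonaute of DNA methylation, had 6.34 and 5.70 against 5.63 and 5.50, and SPX4, a phosphate sensor, had 421 and 285 counts in wild type against 253 and 209 in FTOmut. The translation factor eEF1A, often used as a reference, had 7.45 and 7.96 in wild type against 7.76 and 7.23 in FTOmut.

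The same genotypes were sequenced in root, with 2 libraries each that share none of the shoot libraries, and this was used as a second reading of the shoot genes. Root levels were scaled within the root table. Here the wild-type libraries lay at least 1 log2 unit apart in 8.25% of the genes tested in shoot, and the FTOmut libraries in 20.6%. FTOmut was apart above wild type in root in 3109 of the 24463 genes (12.7%) and apart below in 4471 (18.3%), with a median difference over all of them of -0.54 log2 units. Of the 778 genes apart above in shoot, 374 were apart above in root as well (48.1%, and 12.0% of the root genes apart above), and 46 were apart below there (5.91%). Of the 249 apart below in shoot, 151 were apart below in root (60.6%, and 3.38% of the root genes apart below) and 3 apart above (1.2%).

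DREB1A had 1.64 and 2.24 log2 CPM in wild-type root against 8.07 and 7.64 in FTOmut root, and DREB1C had 0.39 and 0.99 against 9.09 and 8.47. All 7 DREB1 genes tested in shoot were apart above in root, against 12.7% of all genes tested in shoot. Their median difference was 6.80 log2 units. TIFY10A had 5.80 and 5.98 in wild-type root against 9.55 and 9.01 in FTOmut root, and WRKY76 had 3.29 and 3.77 against 5.91 and 5.41. SD1 had 2.52 and 2.50 in wild-type root against -0.67 and -0.28 in FTOmut root, and TIP1;1 had 9.98 and 9.94 against 7.54 and 6.48.

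NAS1 and Nramp1, which split the wild-type shoot libraries, differed by less than 1 log2 unit between those of root. NAS1 had 10.41 and 10.58 log2 CPM in wild-type root against 5.26 and 5.03 in FTOmut root, and Nramp1 had 7.53 and 7.94 against 1.41 and 1.97. In root 15 of the 18 iron genes were apart below and 0 above, against 18.3% and 12.7% of all genes tested in shoot. Of the 27 listed loci apart above in shoot, 12 were apart above in root as well. That is near the share of all 778 genes apart above in shoot, 48.1%, so it is no trait of the listed loci. By list there were 6 of 6 in the cold list, 2 of 2 in the jasmonate list and 3 of 6 in the defence list. There were 0 of 4 in the abscisic acid and drought list and 0 of 3 in the cytokinin and auxin list. Of the 9 apart below in shoot, 7 were apart below in root, against 60.6% of all 249 genes apart below in shoot. Among the 7 was IRT2 with its low shoot counts. SNAC2 had 8.27 and 8.31 in wild-type root against 9.79 and 8.69 in FTOmut root, ABA8ox1 had 5.15 and 5.07 against 7.33 and 5.98, and LOG had 6.32 and 6.24 against 8.05 and 7.16. In these 3 genes FTOmut root lay above wild-type root, by less than the margin. NAC5 had 7.24 and 7.20 in wild-type root against 8.20 and 7.42 in FTOmut root, and DWARF4 had 3.54 and 3.91 against 4.89 and 4.73, also by less than the margin. Other genes apart above in shoot overlapped or lay lower in root: APX2 had 7.99 and 7.75 in wild-type root against 8.26 and 7.21 in FTOmut root, RR9 had 4.55 and 4.80 against 3.48 and 2.88, and NAS3 had 5.52 and 5.61 against 2.76 and 1.87. Photosynthesis genes, markers of green tissue, were apart above in FTOmut root in 17 of 25, against 12.7% of all genes tested in shoot. The part of tissue makeup in the root values was not tested.

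**Figure D5:**
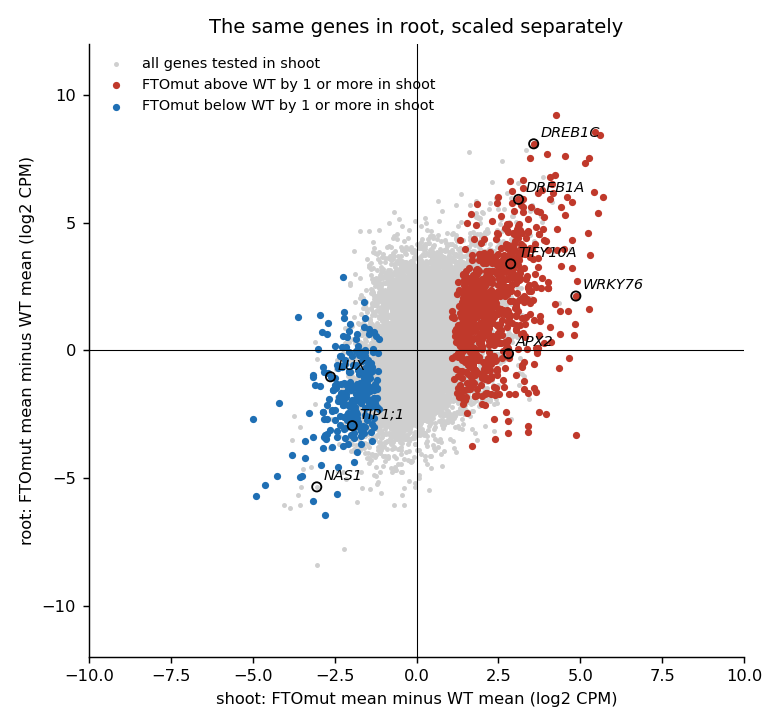
FTOmut mean minus wild-type mean (log2 CPM) in shoot (x axis) and in root (y axis) for the 24463 genes tested in shoot, with the 778 genes apart above in shoot in red and the 249 apart below in blue. DREB1A, DREB1C and TIFY10A lie high on both axes, APX2 lies near 0 in root, and NAS1 and TIP1;1 lie low on both.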

How the data were processed

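RNA-seq of 15-day shoots was used. Reads were trimmed with cutadapt 1.15, aligned with HISAT2 2.1.0 and counted with featureCounts of Subread 1.6.4, per the submitters' processing notes; the genome build is not given in the sources used here. The authors deposited expected counts, whole or fractional, and a gene length in bp, an other unit, not used for the levels. Counts were rounded to whole numbers. The library kit was directional per the labels' protocols; the strand setting of the counting is not given.

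All 6 shoot libraries, 2 for each of 3 genotypes, were fitted with edgeR 4.0.16 (R 4.3.3): filter by expression, TMM, robust quasi-likelihood F test of FTOmut minus WT, two-sided, Benjamini-Hochberg adjusted p under 0.05. The fit was also run on simulated counts, with the same set spread for every gene and no added differences between replicates. That run cannot show how the test performs at the wider spread of these libraries. DESeq2 1.42.0 was an alternative. A prior count of 0.5 was used for log2 CPM, so a level near the floor is set by that prior. SE was worked back from the test, as the size of the fitted log2 fold change divided by the square root of its F statistic. Counts of genes apart are descriptions, read against all 24463 tested genes.

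The members and lists were chosen with earlier results of these data known. Loci carry no names in the files: 295 of 464 symbols matched a RefSeq gene of assembly ASM3414082v1, a different build, on the same chromosome, in the same order and within 500 kb by interpolation, and only these are named. Per list, the text takes up to 4 members each way with the widest gap, up to 3 of highest level, and up to 2 whose WT libraries lay over 3 log2 units apart; of other loci, the 2 of smallest p each way.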

Additional observations from a re-analysis of the deposited data

How the results depend on the processing

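The count of 0 genes called was also 0 with RLE factors, with only the 4 libraries compared, with ERCC scaling and without the 2 loci of chromosome 9. DESeq2 called 532, and edgeR without the filter 241 of 55252. Leaving out 1 library gave from 0 (either FTOmut library) to 4305 (wild-type replicate 2), with 2068 without wild-type replicate 1 and 73 and 71 without FTO replicates 1 and 2. With the tested genes held, added after seeing the data, these were 1607 and 151 for the wild-type libraries. Under ERCC scaling the median log2 fold change of tested genes was 0.30 instead of 0.09. Whether replicates of the same number were handled together was not found in the labels. The differences between replicates 1 and 2 correlated at 0.163 between WT and FTOmut. The correlation was 0.0246 between WT and FTO and 0.0846 between FTO and FTOmut. A fit with a replicate block called 0 genes, and the block turned the sign of CPS4 to 0.64.

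Listed genes apart numbered 27 above and 9 below. At any gap they numbered 86 and 67 of 410 tested, beside 4412 and 3406 of all 24463 tested genes. With RLE factors the listed genes apart numbered 26 and 11, with ERCC scaling 27 and 10, and with a prior count of 2 they numbered 27 and 6. For these other settings the counts over all tested genes are not given. Leaving out 1 library, also added later, gave 33 to 89 above and 15 to 61 below. The gap is taken between the nearest libraries, so leaving out a library can only widen it. These counts could therefore not fall, and nothing is concluded from their rise. Of 59 genes named, 11 turned sign when a library was left out. Their ranges of log2 fold change were -7.34 to 0.58 for NAS1, -5.54 to 2.43 for NAS2, -2.35 to 1.13 for LHY, -2.62 to 0.91 for PORA, -2.06 to 1.71 for NIA1, -0.77 to 1.83 for Fd-GOGAT, -0.34 to 4.07 for OSH1, -1.79 to 4.26 for CPS4, -2.72 to 3.97 for KSL4, -0.037 to 3.58 for TIFY11D and -0.97 to 0.012 for eEF1A. The cause was not tested. With 2 libraries a group, low counts such as those of IRT2, SPL7 and Hd3a limit what can be read.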
